A study of Mus musculus with 6 samples.

Results

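CpG-poor promoters of protein-coding genes made up 1561 of the 32527 intervals of open chromatin (peaks) found by ATAC-Seq in Beko cells. A member is an autosomal peak of the mm9 build that holds the annotated transcription start of protein-coding transcripts on 1 strand only and whose DNA has a CpG observed to expected ratio under 0.6 or a GC content under 50%. This ratio compares the number of CG dinucleotides with the number that the C and G content of the peak would give by chance. Of the 31879 autosomal peaks, 8773 held a coding start, 915 of them with starts on both strands. The members were 19.9% of the remaining 7858 peaks (95% Wilson interval 18.998 to 20.762%), and the other 6297 are called CpG-rich promoter peaks here. The members served 1522 genes of the 7633 with a start in any of these 7858 peaks, and 12 members held starts of more than 1 gene.

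In mammalian DNA most CG dinucleotides are methylated and lost over time, except in CpG islands, which cover the promoters of most housekeeping genes. Promoters outside CpG islands belong more often to genes used in few tissues, and they depend more on sequence-specific transcription factors and on nearby enhancers to be opened. In T-cell development these are genes of the T-cell receptor complex, its coreceptors and the recombination enzymes, which factors of the RUNX, ETS, E protein, TCF/LEF and GATA families help to switch on.

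The cells were of the mouse leukemia line Beko, labelled as progenitor T cells, in which Notch signaling is constitutively active. In 3 libraries they had received the solvent DMSO and in 3 libraries DAPT, a γ-secretase inhibitor (GSI) that stops release of the active Notch1 fragment, each for 24 h. The deposited list joins all 6 libraries and gives no value per library. GSI was therefore not compared with DMSO here, there is no replicate error, and each error given is a counting interval or the spread over the 19 autosomes, which are not biological replicates.

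The members fitted their name for the most part. Their median ratio was 0.442 (quartiles 0.273 and 0.551), against 0.801 in the CpG-rich promoter peaks, values that follow from the rule. A member held a median of 23 CG dinucleotides and a CpG-rich peak 73. The ratio alone placed 1260 members in the class, ratio and GC content together 259, and GC content alone 42. Members of the last kind are not depleted of CG by the ratio. They include Rps26, a ribosomal protein gene, with a ratio of 0.932 at 49.3% GC, and Mcm10, a replication factor gene, with 0.619 at 49.7% GC. Measured over 250 bp on either side of the coding start in place of the whole peak, 1195 members (76.6%) were CpG-poor. At the edge of the class, Rab5c, Rwdd3, Ehd2, Tex9 and BC057079 had ratios of 0.5997 to 0.59996, and Chst14, Tmem120b, Abcb8, Srrm3 and Commd5, just over the threshold, had 0.6005 to 0.6008.

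The contrast between both kinds of promoter can be read in the 100 bases upstream of the outermost start of a few genes, shown 5′ to 3′ on the strand of the gene with each CG in capitals (mm9). The set takes the first genes of the lists of T-cell receptor and of DNA replication genes that qualified. The stretch had to lie inside the peak and outside every annotated exon. T-cell receptor genes were taken at members only and replication genes at CpG-rich peaks only, so the rule favours this contrast. The set was chosen after the CG counts of the classes were known. Cd3e and Cd3g encode invariant chains of the T-cell receptor complex, Cd8a a coreceptor and Cd5 a surface glycoprotein that dampens receptor signaling. Mcm2 and Mcm3 encode subunits of the replicative helicase and lie at CpG-rich peaks.
Cd3e, chr9:44817674-44817773, minus strand: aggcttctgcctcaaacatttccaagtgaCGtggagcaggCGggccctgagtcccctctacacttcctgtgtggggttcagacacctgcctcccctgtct
Cd3g, chr9:44788515-44788614, minus strand: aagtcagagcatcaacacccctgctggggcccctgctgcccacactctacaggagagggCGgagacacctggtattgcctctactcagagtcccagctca
Cd8a, chr6:71323321-71323420, plus strand: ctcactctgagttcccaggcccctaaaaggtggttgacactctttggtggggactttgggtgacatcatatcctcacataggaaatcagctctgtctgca
Cd5, chr19:10813465-10813564, minus strand: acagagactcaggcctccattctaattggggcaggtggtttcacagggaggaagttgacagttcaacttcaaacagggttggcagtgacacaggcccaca
Mcm2, chr6:88848775-88848874, minus strand: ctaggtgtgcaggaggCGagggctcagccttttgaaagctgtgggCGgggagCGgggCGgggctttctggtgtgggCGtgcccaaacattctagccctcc
Mcm3, chr1:20810360-20810459, minus strand: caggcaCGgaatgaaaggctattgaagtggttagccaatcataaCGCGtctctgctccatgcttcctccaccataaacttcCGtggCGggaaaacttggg
The stretches of Cd8a and Cd5 held no CG, that of Cd3g held 1 and that of Cd3e held 2, whereas those of Mcm2 and Mcm3 held 5 each.

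Most genes with CpG-poor starts only were not open. Of 9899 autosomal coding genes whose starts are all CpG-poor in the genome, 1132 (11.4%, Wilson interval 10.8 to 12.1%) had a coding start inside a peak. The share was 72.3% for the 7548 genes with CpG-rich starts only and 70.5% for the 3963 genes with starts of both kinds. Genes with CpG-poor starts were open less often on all 19 autosomes, by 60.05 ± 4.79 percentage points (mean ± SD over 19 autosomes; two-sided exact sign-flip permutation test, p = 3.81e-06, the smallest that 19 autosomes can give, and 7.63e-06 adjusted over 6 tests). Of the 1132 open genes, 908 had a member, 122 were open at CpG-rich peaks only and 102 at peaks with starts on both strands, while the remaining member genes had CpG-rich starts only (214) or starts of both kinds (400). Leaving out olfactory and vomeronasal receptor genes raised the share to 13.4%, and counting a peak within 1 kb of a start raised it to 15.3%. With 500 bp on either side of each start it was 15.7%, and with ratio thresholds of 0.5 and 0.7 it was 8.64 and 17.3%, so the background of 11.4% depends on where the class ends. Gene lists of T cells, other immune cells, other tissues and broadly used machinery were then set beside this background of 11.4% and beside the 19.9% of genes at promoter peaks of 1 strand that had a CpG-poor one (1522 of 7633). The lists were compared by counts and shares, with no test.

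The genes of the T-cell receptor complex, its coreceptors and its proximal signaling were the list most often open among those with CpG-poor starts. Of its 34 genes with CpG-poor starts, 27 (79.4%) were open, 26 of them at a member. Of its 29 genes open at promoter peaks of 1 strand, 27 were at a member, the additional gene being Skap1, whose start window is CpG-rich. None of these 27 member genes was also open at a CpG-rich peak. They included the receptor chains Cd3e, Cd3g and Cd247, the coreceptors Cd4 and Cd8a, and the costimulatory receptors Cd27, Cd28 and Icos. The kinases Lck, Zap70 and Txk and the adaptors Lat, Lcp2, Sit1, Lax1 and Skap1 were also among them. Cd3d, Cd2, Cd7, Ctla4, Pdcd1, Grap2 and Trat1 had CpG-poor starts and no coding start in a peak, and allowing a peak within 1 kb left the list's share at 79.4%. Cd8b1, which encodes the partner chain of CD8, was the open gene without a member, at a peak with starts on both strands. Fyn and Prkcq, with starts of both kinds, were open at CpG-rich peaks only.

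**Figure D1:**
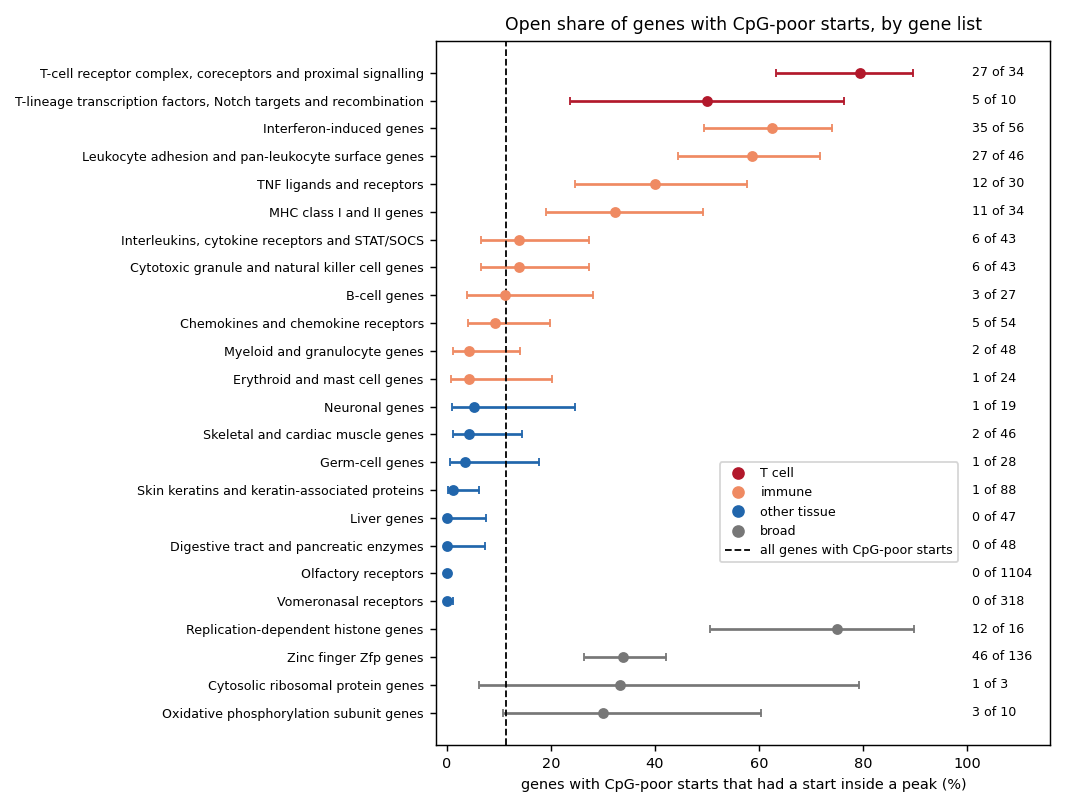
Share of genes with CpG-poor starts that had a coding start inside a peak (x axis, percent) for each gene list with at least 3 such genes (y axis), with 95% Wilson intervals as bars, the counts at the right and the share of all such genes (11.4%) as the dashed line. The list of T-cell receptor genes stands highest at 27 of 34, and the olfactory and vomeronasal receptor lists stand at 0.

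The 27 genes of this list had 29 member peaks, with widths of 342 to 1763 bp (median 791 bp) and ratios of 0.162 to 0.578 (median 0.295). Cd247, the signaling chain of the receptor, had the widest, chr1:167718627-167720389, with 1763 bp, 4 coding starts and 41 CG. The narrowest, of 342 bp, lay at the outermost start of Cd4 (chr6:124837943-124838284), while a second member of 552 bp with 6 CG lay at an inner start (chr6:124829346-124829897). Lck, the kinase bound to the coreceptors, likewise had members of 693 bp at its outermost start and of 792 bp, with 2 starts, at an inner one, a gene known for a pair of promoters. Themis, a regulator of thymocyte selection, had the lowest ratio of the list with 0.162 and 7 CG in 889 bp. The adaptor gene Skap1 had the highest with 0.578 and 42 CG in 843 bp, just inside the threshold. A neighbouring peak lay within 10 kb of 23 of the 29 (79.3%), against 871 of all 1561 members (55.8%).

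**Figure D2:**
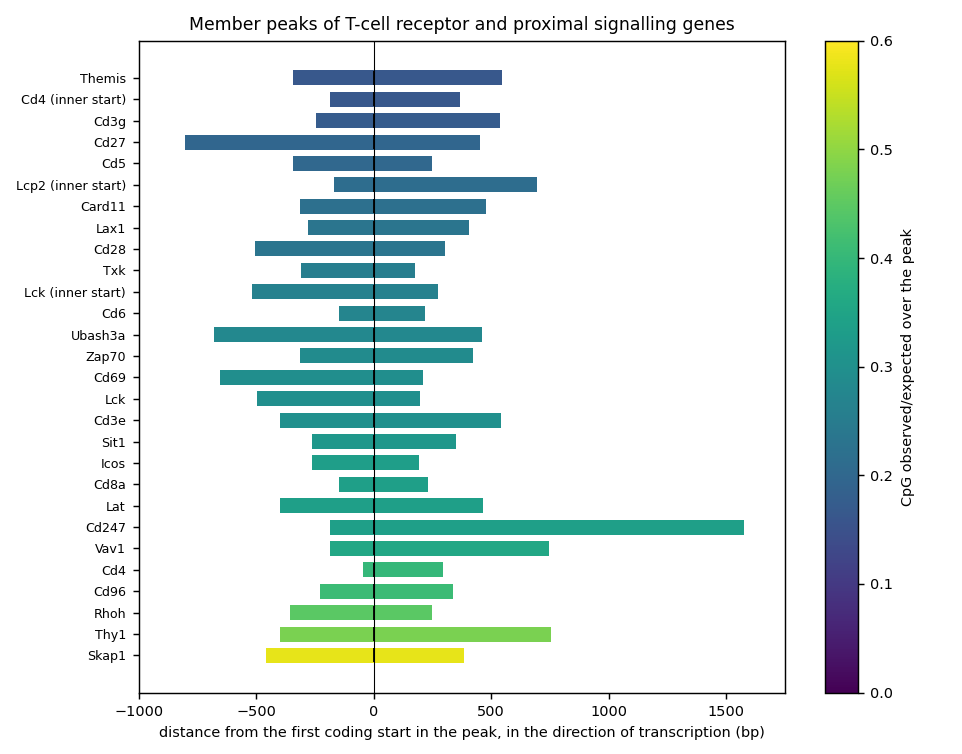
Extent of 28 of the 29 member peaks of T-cell receptor and proximal signaling genes (one bar each, y axis) around the first coding start in the peak at 0 (x axis, bp in the direction of transcription), coloured by the CpG observed to expected ratio. Ratios rise from 0.162 at Themis to 0.578 at Skap1, and the bar of Cd247 reaches farthest downstream.

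The second T-cell list holds transcription factor genes of the lineage, several of which also have CpG-rich starts. Of the 31 genes of this list open at promoter peaks of 1 strand, 11 (35.5%) were at a member. Rag1 and Rag2, the recombinase subunits that cut receptor genes, were at members of 666 and 825 bp and had no CpG-rich start peak. Hes1, a direct Notch target, was a member through its GC content of 47.4% and had a ratio of 0.677. A further 7 (Foxp1, Ikzf1, Runx1, Runx3, Satb1, Tcf12 and Tcf7) were also open at a CpG-rich peak, against 0 of the 27 receptor genes. Tcf12, an E protein gene, had 2 CG in a member of 717 bp at an inner start, with a ratio of 0.0738. Runx1 and Runx3 had members at their outermost starts, of 907 and 644 bp. Of the 10 genes of this list with CpG-poor starts, 5 were open, Dtx1 at a CpG-rich peak, and Dntt, Ikzf2, Id3, Bcl11b and 1 of 2 annotated genes named Sox4 were not. All these calls rest on the annotated coding starts, which were not checked against measured ones, and a gene whose annotated start is misplaced can be missed. Notch1, Notch3, Gata3, Myb and Nrarp were open at CpG-rich peaks only.

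Other leukocyte genes were frequent among the members as well. Of 46 genes for leukocyte adhesion and common surface proteins with CpG-poor starts, 27 (58.7%) were open, and 30 of the 32 open at promoter peaks of 1 strand were at a member. Among them were Ptprc (CD45), a phosphatase of all leukocytes, the integrin genes Itgal, Itgb2, Itga4 and Itgb7, and Laptm5, whose product lowers receptor levels. Laptm5 had a member of 1697 bp with 26 CG, and Ptprc had 1 of 783 bp with 9 CG. Gimap genes, GTPases of lymphocytes, lined up in 4 members between chr6:48596922 and chr6:48689430, at Gimap8, Gimap9, Gimap7 with Gimap1, and a further start of Gimap1. Gimap3, Gimap4, Gimap5 and Gimap6 had CpG-poor starts and were not open. The same held for Cd53, Slamf6, Itgae, Ly6a, Lsp1 and Ms4a4b, among others of this list.

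Interferon-induced genes were also frequent. Of 56 with CpG-poor starts 35 (62.5%) were open, 31 of them at a member, and 33 of the 40 open at promoter peaks of 1 strand were at a member. All 8 guanylate-binding protein genes (Gbp2, Gbp3, Gbp4, Gbp6, Gbp7, Gbp8, Gbp9 and Gbp10) that were open at such peaks were at members, and Gbp10 had no CG in 596 bp, Gbp6 1 in 725 bp and Gbp8 1 in 679 bp. The antiviral GTPase genes Mx1 and Mx2 had ratios of 0.0540 and 0.0718. Irf7, an interferon regulatory factor, had members of 806 bp at its outermost start and of 491 bp at an inner one. Not open were Oas1a, Oas1g, Oas2, Oas3, Oasl1 and Oasl2, of the oligoadenylate synthetase family, and Isg15, Ifit3, Gbp1, Gbp5, Tgtp1 and Tgtp2. A neighbouring peak within 10 kb was found for 15 of the 34 members of this list (44.1%).

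Lists of receptors and ligands were mixed. Of 30 genes for TNF ligands and receptors with CpG-poor starts, 12 were open, among them Fas, the death receptor, Ltb, Tnfsf10 (TRAIL), Tnfrsf18 (GITR) and Cd27. Of 34 MHC genes 11 (32.4%) were open. Class II genes of antigen-presenting cells were among the members, namely H2-Ab1 (527 bp, 9 CG), H2-Eb1 (399 bp, no CG), H2-Eb2 and H2-Oa. Others of this pathway with CpG-poor starts were not open, namely H2-Aa, H2-DMa, H2-DMb1, H2-DMb2, H2-Ob, Cd74 and the class II activator Ciita. For interleukins and their receptors the share was 6 of 43 (14.0%) and for chemokines and their receptors 5 of 54 (9.26%), both near the background. The open chemokine receptor genes included Ccr7, Ccr9 and Ccr4, and the cytokine receptor genes Il2rb, Il9r and Il12rb2, while Il2, Il4, Il2ra and Il7r had no coding start in a peak. Ccr9 and Il12rb2 have starts of both kinds and are not counted in these shares. Cytotoxic and natural killer cell genes stood at 6 of 43 (14.0%). They were Gzma, Prf1, Ctsw, Cst7, Serpinb9 and Srgn, and all 6 were members.

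Genes of other lineages were open at or under the background share of 11.4%. Of B-cell genes with CpG-poor starts 3 of 27 (11.1%) were open, close to that share, namely Cr2, Pou2af1 and Tnfrsf13c, and the defining genes Cd79a, Cd79b, Ms4a1 and Pax5 were not. Myeloid genes gave 2 of 48 (Cyba and Ncf4, of the oxidase complex) and erythroid and mast cell genes 1 of 24 (Nfe2). Muscle genes gave 2 of 46 (Ryr1 and Tnni3), neuronal genes 1 of 19 (Tph2), germ-cell genes 1 of 28 (Zp1) and keratin genes 1 of 88 (Krtap5-4). Liver genes (0 of 47), digestive enzyme genes (0 of 48), olfactory receptor genes (0 of 1104, upper Wilson limit 0.347%) and vomeronasal receptor genes (0 of 318) gave none, although 0.543% of the olfactory receptor genes had a peak within 1 kb of a start. In all, 5 of 1698 genes of the lists for other tissues (0.294%) were open, against 32 of 44 in the lists for T cells (72.7%). Most of the 1698 are the 1104 olfactory and 318 vomeronasal receptor genes, which lower this share. The T-cell value joins 27 of 34 receptor and signaling genes with 5 of 10 genes of the second list. The 6 members at genes of other tissues, Camk2b included, had a median width of 436.5 bp.

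Broadly used genes reached this class in small numbers, apart from zinc fingers. Of open genes at promoter peaks of 1 strand, 2 of 55 for cytosolic ribosomal proteins (Rpl13a and Rps26), 3 of 38 for oxidative phosphorylation, 1 of 30 for the proteasome and 1 of 27 for DNA replication (Mcm10) were at a member. The proteasome gene was Psmb10, a subunit of the interferon-induced immunoproteasome. The share at a member over all genes at promoter peaks of 1 strand was 19.9% (1522 of 7633). In contrast to the lists above, 54 of 204 zinc finger Zfp genes (26.5%, Wilson interval 20.9 to 32.9%) were at a member. Their 54 members had a median ratio of 0.492, and 9 of them (16.7%) had a neighbour within 10 kb. They lay in part side by side, as in the run of 5 members at Zfp458, Zfp457, Zfp595, Zfp953 and Zfp456 (chr13:67369681-67476849). Of 16 replication-dependent histone genes with CpG-poor starts 12 were open, 9 at CpG-rich peaks and 3 at peaks with starts on both strands, and the single histone member, Hist1h2bh, belonged to the genes with CpG-rich starts.

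Gene families were defined by the stem of the symbol. Of 217 stems with at least 5 genes at promoter peaks of 1 strand, 14 had at least as many genes at members as not. Over all genes at such peaks the share at members was 19.9% (1522 of 7633). All open Gbp genes (8) and Ly genes (5, Ly6d, Ly6e, Ly9, Ly75 and Ly96) were at members. The share was 22 of 30 for Cd genes, 10 of 14 for Gpr genes, 7 of 11 for Tnfrsf genes and 6 of 11 for Il genes. Alkbh, Coro, Cyb, Cyp, Hdac, Hsd, Pou and Tnfaip genes completed the 14, with 3 or 4 genes each at members, out of 5 to 8. Tnfaip8 entered the Tnfaip count as more than 1 annotated gene. Counts this small were not tested against the share over all genes.

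The peaks of this class differed in shape and place from CpG-rich promoter peaks. Members had a median width of 762 bp (quartiles 557 and 977 bp), CpG-rich promoter peaks 930 bp and CpG-poor peaks over 1 kb from every start 463 bp. Members were narrower than CpG-rich promoter peaks on all 19 autosomes, by 174 ± 42.4 bp (mean ± SD over 19 autosomes; exact sign-flip permutation test, p = 3.81e-06, adjusted p = 7.63e-06). Medians of 313 and 343 bp separated the outer starts of a member from its upstream and downstream edge, against 366 and 443 bp in CpG-rich peaks. The widest members were at Baz2a (2599 bp), Tubb2b (2517 bp), Stat6 (2414 bp), Ncald, Prkcb, Cnot8, Btg2, Aes, A830007P12Rik and Eapp (2071 bp). Stat6 transmits interleukin-4 signals, and Btg2 restrains proliferation. The narrowest were at Il12rb2 (265 bp, an inner start with no CG), Ddr1, Ndst1, 2900026A02Rik and Myom3 (295 bp). No CG at all was found in 9 members, those of Gm9745, Idi2, H2-Eb1, F830016B08Rik, Iigp1, Slc5a9, Gbp10, Il12rb2 and Krtap5-4.

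**Figure D3:**
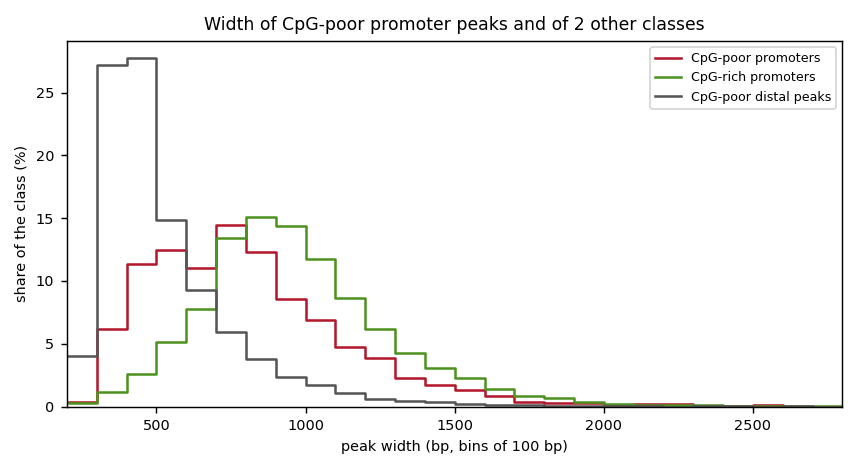
Width of the 1561 CpG-poor promoter peaks, the 6297 CpG-rich promoter peaks and the 20087 CpG-poor peaks over 1 kb from every start (x axis, bp in bins of 100 bp; y axis, percent of each class). The medians are 762, 930 and 463 bp, so that the CpG-poor promoters lie between both other classes.

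Members lay more often at inner starts and held fewer coding starts. The outermost start of the gene was inside 75.7% of members and 91.1% of CpG-rich promoter peaks, a difference of -15.0 ± 4.98 percentage points that was negative on all 19 autosomes (exact sign-flip permutation test, p = 3.81e-06, adjusted p = 7.63e-06). Of the 380 members without the outermost start, 134 belonged to a gene with a CpG-rich start peak as well. A member held a mean of 1.68 coding starts and a CpG-rich peak 1.86, lower on 16 of 19 autosomes (difference -0.191 ± 0.166, exact sign-flip permutation test, p = 0.000195, adjusted p = 0.000233).

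Members also had other peaks close by more often. A neighbour within 10 kb was present for 55.8% of members and 42.2% of CpG-rich promoter peaks, and the median distance to the nearest peak was 8580 and 12476 bp. The difference was 13.5 ± 7.98 percentage points, positive on 18 of 19 autosomes (exact sign-flip permutation test, p = 2.67e-05, adjusted p = 4.01e-05). It was negative on chromosome 13, with 26.8% of members against 38.7%. With both thresholds required of a member, which left 259 peaks, the difference was 3.01 points and did not pass (exact sign-flip permutation test, p = 0.441). The peaks compared with then included those under 1 threshold only, so this is not a comparison with the CpG-rich peaks defined above. The share of members among the peaks with coding starts of 1 strand ranged from 11.99% on chromosome 12 to 26.4% on chromosome 7 (19.5 ± 4.05%, mean ± SD over 19 autosomes).

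**Figure D4:**
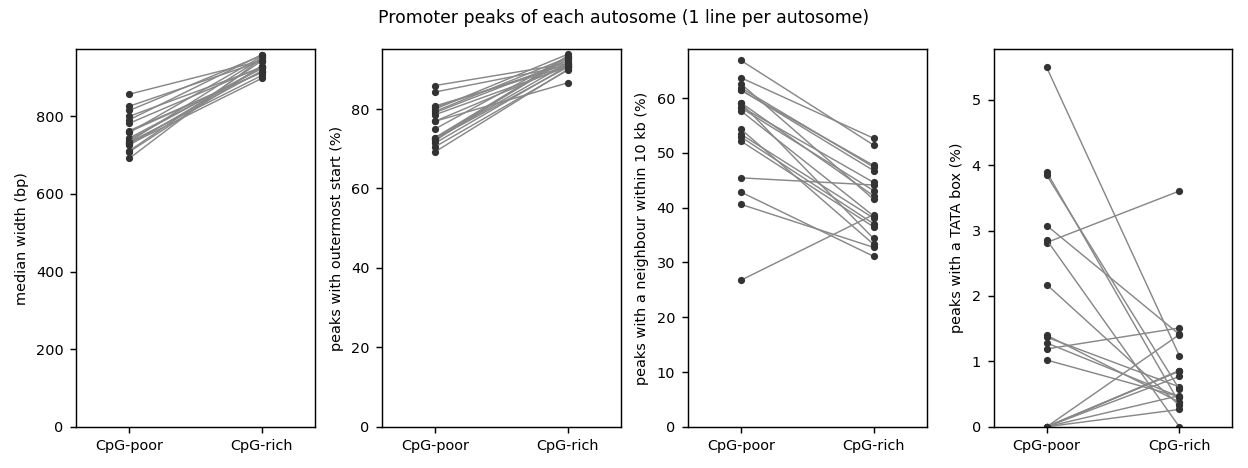
Values of CpG-poor and CpG-rich promoter peaks on each of the 19 autosomes for median width, the shares with the outermost start, with a neighbour within 10 kb and with a TATA box (y axes in bp or percent), each autosome giving a pair of joined points. Width and outermost start are lower for CpG-poor promoters on all 19, and neighbours are more frequent on 18, with chromosome 13 the exception, while TATA boxes are more frequent on 10.

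A TATA box, the element bound by the TATA-binding protein about 30 bp upstream of a start, was rare in the members. The word TATAAA on the strand of the gene began 20 to 40 bp upstream of a coding start in 24 members (1.54%) and in 51 CpG-rich promoter peaks (0.810%). The difference of 0.745 ± 1.74 percentage points over 19 autosomes did not pass (exact sign-flip permutation test, p = 0.0798), although it did without chromosome 16 (0.864 points, exact sign-flip permutation test, p = 0.0475). At 120 to 140 bp upstream the word was found in 0.448 and 0.254%. Listed genes with it were Cd69, an early activation antigen, Laptm5, Irf7, H2-Q4, Tph2, the serotonin synthesis enzyme of neurons, and Zp1, an egg coat protein gene. The 60 bases upstream of the start are shown 5′ to 3′ on the strand of the gene for the 4 of them in which this stretch meets no annotated exon, with TATAAA in capitals, because the position of the word is the result (mm9).
Cd69, chr6:129225388-129225447, minus strand: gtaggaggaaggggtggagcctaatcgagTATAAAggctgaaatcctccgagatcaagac
Laptm5, chr4:130468980-130469039, plus strand: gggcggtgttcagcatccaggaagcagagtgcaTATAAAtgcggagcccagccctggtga
Tph2, chr10:114622079-114622138, minus strand: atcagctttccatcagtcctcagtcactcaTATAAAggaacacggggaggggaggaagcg
Zp1, chr19:10995123-10995182, minus strand: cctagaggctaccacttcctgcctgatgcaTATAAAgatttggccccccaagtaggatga
The word began 31 bp upstream in Cd69, 27 bp in Laptm5 and 30 bp in Tph2 and Zp1. The last pair, genes of neurons and oocytes, had members of 383 and 370 bp.

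Short words bound by transcription factor families were then counted on both strands of the central 200 bp of each peak. A match to a word is a description and no binding site, and words that hold CG were not tested against CpG-rich peaks because the rule sets them. Of 14 words without CG, 13 were more frequent in members than in CpG-rich promoter peaks. Among these the CCAAT box (24.6 against 20.04%) did not pass under 4 other settings. TGTGGT, of the RUNX family, was found in 14.0% of members and 5.64% of CpG-rich peaks (difference 9.29 ± 6.41 points, exact sign-flip permutation test, adjusted p = 2.14e-05). The E-box CAGCTG, bound by E proteins, was found in 18.1 and 9.94% (adjusted p = 1.34e-05, exact sign-flip permutation test), AACTG of MYB in 34.1 and 17.4%, and AGGAAGT, the ETS form without CG, in 11.3 and 3.72%. TGGGAA, the word of RBPJ and also of Ikaros, was found in 17.4 and 10.7%. The exception was AAGATGG of YY1, with 4.42 and 6.18%, lower on 14 of 19 autosomes (adjusted p = 0.00988, exact sign-flip permutation test). The median GC content was 55.4% in members and 63.4% in CpG-rich promoter peaks. The part of base composition in these differences was not tested. In windows 2 kb away from the members, the words of RUNX (15.9%), MYB (37.5%) and RBPJ (19.6%) were no rarer than in members. Also no rarer in these windows were TATAAA (11.4%) and the words of TCF/LEF (14.8%), GATA (10.5%) and AP-1 (6.99%). Rarer there than in members were CAGCTG (10.3%), CACCTG (16.9%), AGGAAGT (5.26%), CCAAT (23.7%) and AAGATGG (3.91%). The words of STAT (4.81%) and IRF (6.16%) were rarer too, as were GGGCGG (3.78%) and CCGGAAG (1.09%), which hold CG. Differences between members and these windows were not tested.

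Against CpG-poor peaks over 1 kb from every start, the order was largely the opposite. Of 16 words, 9 were less frequent in members, 3 more frequent and 4 did not pass. RUNX fell short with 14.0% against 26.2% (-11.2 ± 7.001 points, adjusted p = 8.14e-05, exact sign-flip permutation test), and both E-boxes, the words of TCF/LEF, GATA, AP-1 and MYB, the TATA box and the CG-free ETS word were lower too. The word of TCF/LEF was CTTTGA (10.4 against 16.6%), and that of GATA was AGATAA (4.68 against 9.10%). That of AP-1, the FOS and JUN pair, was TGANTCA (4.04 against 6.31%). Higher in members were GGGCGG of the SP family (31.8 against 7.97%, 23.0 ± 9.50 points), CCGGAAG, the ETS word with CG (8.01 against 2.17%), and the CCAAT box (24.6 against 18.2%). The words of RBPJ (17.4 against 16.5%), STAT, IRF and YY1 did not pass, though RBPJ, IRF and YY1 each passed under another setting. STAT was searched as TTCNNNGAA. The classes also differ in the values that the rule uses, with median ratios of 0.442 in members and 0.210 in distal peaks and median GC contents of 55.4 and 49.9%, and the part of base composition in these differences was not tested. With both thresholds required of members and of distal peaks alike, SP, CCGGAAG and CCAAT no longer passed.

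**Figure D5:**
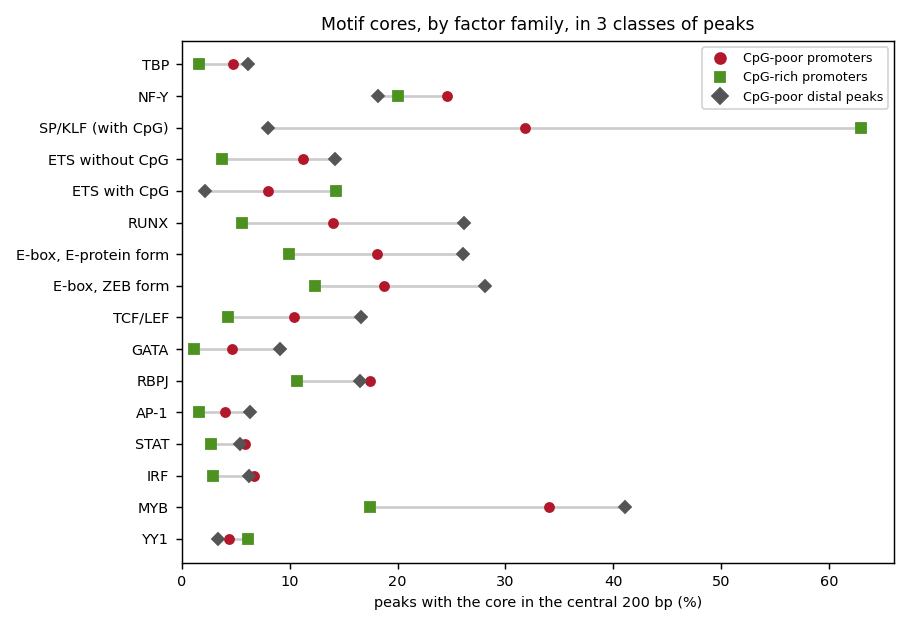
Share of peaks with each of 16 short words in the central 200 bp (x axis, percent; y axis, factor family of the word) for CpG-poor promoters, CpG-rich promoters and CpG-poor peaks over 1 kb from every start. TATAAA is labelled TBP, CCAAT NF-Y, CAGCTG the E-protein form of the E-box and CACCTG its ZEB form. For most words without CG the CpG-poor promoters lie between the other classes, as for RUNX with 14.0, 5.64 and 26.2%.

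Words were also counted within 100 bp of the coding start of listed members. GAAANNGAA, the IRF word, was found in 9 of 34 members of interferon-induced genes (26.5%), 1 of 41 of both T-cell lists (2.44%) and 92 of all 1561 (5.89%). The E-box CACCTG was found in 15 of the 41 T-cell members (36.6%), 3 of the 34 interferon members and 16.4% of all. CAGCTG was found in 14 of the 34 interferon members (41.2%), 8 of the 41 T-cell members (19.5%) and 17.3% of all. Related genes are among the interferon members, and Gbp4, Gbp6 and Gbp8 each held CAGCTG in the central 200 bp. The words named here are some of the 16 counted. These counts were made without a test. The 100 bases upstream of the start are shown for 3 interferon-induced genes with the IRF word, in capitals on either strand and overlapping in Zbp1, chosen after the matches were known. Zbp1 senses viral nucleic acid, Slfn8 is a Schlafen gene and Trim30a belongs to the tripartite motif family (mm9, strand of the gene, 5′ to 3′).
Zbp1, chr2:173044425-173044524, minus strand: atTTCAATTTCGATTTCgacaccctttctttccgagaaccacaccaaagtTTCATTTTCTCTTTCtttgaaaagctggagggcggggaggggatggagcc
Slfn8, chr11:82834313-82834412, minus strand: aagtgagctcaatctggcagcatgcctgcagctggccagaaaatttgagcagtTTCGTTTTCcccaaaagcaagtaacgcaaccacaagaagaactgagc
Trim30a, chr7:111613708-111613807, minus strand: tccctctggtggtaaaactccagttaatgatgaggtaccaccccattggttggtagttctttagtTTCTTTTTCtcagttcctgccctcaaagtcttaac
Zbp1 held 4 matches, and Slfn8 and Trim30a held 1 each.

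Some members have near-identical copies elsewhere in the genome, and a read kept at 1 place cannot tell such copies apart. Such a copy, 95% identical or more and spanning no less than 80% of the peak, was found for 60 members (3.84%) and for 39 CpG-rich promoter peaks (0.619%). Of these 60, 34 lay on chromosome 2. No member of either T-cell list had a copy. Listed genes with one were Gbp4, Igtp, Iigp1 and Slfn9 of the interferon list and Zfp345, Zfp772, Zfp808, Zfp931, Zfp932 and Zfp955b. Whether these 10 promoters are open themselves is uncertain. Without the 60, members were still narrower by 169 bp and had neighbours more often by 14.5 points.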

How the data were processed

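ATAC-Seq was performed with a kit on Beko cells, 3 libraries with DMSO and 3 with GSI for 24 h, grouped as labelled. As the methods and the submitters' processing notes state, the authors trimmed reads with trimGalore, aligned them to mm9 with HISAT2 2.2.1 (1 place per read), marked out duplicates by Picard, ran MACS2 without input and MSPC, kept peaks in 3 of 6 libraries and removed blacklisted regions. A peak can thus come from 1 treatment. The deposited list gives peaks by chromosome and by start and end, with a score of 0 for all, which was not used. Depth was not used.

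Coordinates are printed counted from 1. Starts came from GENCODE vM1 and sequence from the NCBIM37 assembly (mm9). Analyses used Python 3.11.15, numpy 2.4.6, scipy 1.17.1, pysam 0.24.0, matplotlib 3.10.9 and minimap2 2.31 (copies). Classes were compared per autosome with a two-sided exact sign-flip permutation test, Benjamini-Hochberg adjusted over 6 tests or over the words, and tested on simulated data. Shares have Wilson intervals, which cover counting error only. The members and gene lists were chosen with earlier results of these data known. Named are genes of the lists, the 10 widest and 5 narrowest members, the 10 of lowest ratio, 5 on either side of 0.6, and families with at least 5 open genes of which most or an equal number were at members. Runs of members and the gene sets for CG and IRF sequences were picked after values were seen. Alternatives were other thresholds, windows, distances, annotation levels and minimum widths, each autosome left out, and, added after seeing the data, members without copies. Some items that the rule names are not reported here.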

Additional observations from a re-analysis of the deposited data

How the results depend on the processing

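No paired analysis was possible because libraries have no values of their own in the merged list. The number of members was 1020 with a ratio threshold of 0.5, 2763 with 0.7 and 259 with both criteria required, in place of 1561. Each of these settings also redrew the classes compared with. Every other promoter peak of 1 strand then counted as CpG-rich, and distal peaks had to meet the same criteria as members. With both criteria the excess of neighbours was 3.01 points (p = 0.441, exact sign-flip permutation test), and 1 word was higher and 1 lower than in distal CpG-poor peaks. The higher one was IRF (8.40 points, adjusted p = 0.00284), while GGGCGG (3.39, adjusted p = 0.251), CCGGAAG (2.56, adjusted p = 0.157) and CCAAT (9.43, adjusted p = 0.157) no longer passed (exact sign-flip permutation tests). Lower words that lost their call with both criteria were RUNX (-3.73, adjusted p = 0.750), CAGCTG (-1.24, 0.917), GATA (-0.906, 0.917) and AP-1 (-0.0446, 0.974, exact sign-flip permutation tests). At 0.5, 4 words were lower than in distal peaks. TATAAA (-0.260, adjusted p = 0.847), ETS without CG (-0.365, 0.886), TCF/LEF (-3.64, 0.0770), GATA (-2.10, 0.0770) and MYB (-3.64, 0.129) no longer passed there (exact sign-flip permutation tests). In all, 0 words were lower than in CpG-rich peaks at 0.7, and 0 with annotation levels 1 and 2 only, so that the YY1 difference rests on the choice of threshold and transcripts. Against CpG-rich peaks the CCAAT box did not pass at 0.5 (adjusted p = 0.0668), with both criteria (0.0513), with annotation levels 1 and 2 (0.181) or around the start (0.276), nor did RBPJ with both criteria (0.434, exact sign-flip permutation tests). Against distal peaks RBPJ passed without copied peaks (2.10 points, adjusted p = 0.0477), and YY1 passed at 0.7 (1.79, adjusted p = 0.000295) and around the start (1.98, adjusted p = 0.00288, all exact sign-flip permutation tests). The TATA difference passed without chromosome 16 (0.864 points, p = 0.0475) and with TATATA counted (1.51 points, p = 0.0213, exact sign-flip permutation tests). Width, outermost start, coding starts and open share kept direction and call under every alternative run, width differences ranging from -179 to -170 bp when each autosome was left out. Differences from distal peaks changed sign for YY1 at 0.5 (-0.144), for STAT (-0.307) and IRF (-0.400) at 0.7, for IRF with peaks of at least 500 bp (-0.306), in the central 400 bp (-0.446, YY1 -0.107) and around the start (-0.366). With both criteria they changed sign for TATAAA (1.24), ETS without CG (0.278), TCF/LEF (1.28), RBPJ (-0.687), MYB (1.48) and YY1 (-1.68), and that from CpG-rich peaks for CACCTG (-0.376). Causes were not tested. Depth per library was not used, so a gene without a peak may be closed or under the detection limit.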
